A study of Homo sapiens with 4 samples.

Results

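The genes described here are 9 members of the TGF-beta pathway in A2780s cells, a human ovarian cancer line: the ligands TGFB1, TGFB2 and TGFB3, the receptors TGFBR1, TGFBR2 and TGFBR3, the intracellular mediators SMAD3 and SMAD7, and TGFBI. They were found as the non-control probes whose gene name was one of these 9 symbols on all 4 arrays, and they are 9 of the 27213 genes tested. The set was chosen by a measured value, the high TGFBI ratio in the clones labelled GALNT3/T6 KO. The values of all 9 genes in those clones, and their differences from GALNT3 KO, are therefore given as a description; where a count past the threshold is printed for them, nothing is read from it. The rule used no value of the GALNT3 KO arrays, and the genes were tested there, although earlier results of all 4 arrays were known when the set was chosen. Each array carried RNA of 1 knockout (KO) clone in Cy5 and RNA of a mock-transfected control A2780s clone (Ctrl) in Cy3. There were 2 GALNT3 KO clones, made with CRISPR-Cas9, and 2 clones labelled GALNT3/T6 KO, in which an shRNA against GALNT6 had been added to GALNT3 KO cells. No dyes were swapped, no Ctrl was set against another Ctrl, and the labels do not say whether the same Ctrl RNA was used 4 times. With 2 clones of a kind, p-values measure the spread between same-labelled clones, pooled over both kinds, and leave out that of Ctrl. A GALNT3 KO interval therefore also carries the spread of the clones labelled GALNT3/T6 KO. The 2 clones labelled GALNT3/T6 KO are called the GALNT3/T6-labelled clones, because GALNT3 reads against that label, as given at the end. Values below are KO over Ctrl on the log2 scale unless another scale is named.

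TGF-beta ligands are secreted in a latent form bound to their own propeptide and to latent TGF-beta binding proteins. Once released, a ligand brings together the type II receptor TGFBR2 and the type I receptor TGFBR1, which phosphorylates SMAD2 and SMAD3 so that they enter the nucleus with SMAD4. TGFBI is a secreted matrix protein built of FAS1 domains that binds integrins and collagens, and it takes its name from its induction by TGF-beta. In epithelial cells this pathway is known for growth arrest and for the epithelial to mesenchymal transition.

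The array held 13 probes for the 9 genes, and all 13 passed the filter (in some group, KO or Ctrl signal clearly over background for each of the 2 arrays). TGFBI was read by a single probe at chr5:135399343-135399402 (hg19, plus strand). TGFB2, TGFB3, TGFBR2 and SMAD3 each had 2 probes, and the brighter one stood for the gene. The following 3 probes cross an intron and therefore read spliced RNA. They are shown because the TGFB1 probe was printed 10 times on each array and because the TGFB3 and TGFBR2 probes gave smaller ratios than the other probe of their gene. The TGFB1 probe lies at chr19:41838142-41847802 on the minus strand, the TGFB3 probe at chr14:76429823-76431982 on the minus strand and the TGFBR2 probe at chr3:30715713-30729909 on the plus strand (hg19).
TGFB1: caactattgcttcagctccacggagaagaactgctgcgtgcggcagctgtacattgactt
TGFB3: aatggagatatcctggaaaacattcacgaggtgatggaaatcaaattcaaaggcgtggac
TGFBR2: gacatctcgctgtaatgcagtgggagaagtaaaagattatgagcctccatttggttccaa

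The 250 bases before the start site are shown for 3 genes with 1 annotated start each: TGFBI and TGFB2, which stood high in the GALNT3/T6-labelled clones, and TGFB1, which stood low there. They come from RefSeq (GRCh38.p14), at chr5:136028738-136028987 (plus strand), chr1:218345086-218345335 (plus strand) and chr19:41353923-41354172 (minus strand). Capitals mark 4 short motifs searched on both strands: the SMAD element CAGAC, the AP-1 site TGACTCA, the GC box GGGCGG and the TATA box TATAAA. Of 34943 promoter windows of this length, 38.0% held the SMAD element, 4.22% the AP-1 site, 42.5% the GC box and 10.8% the TATA box.
TGFBI: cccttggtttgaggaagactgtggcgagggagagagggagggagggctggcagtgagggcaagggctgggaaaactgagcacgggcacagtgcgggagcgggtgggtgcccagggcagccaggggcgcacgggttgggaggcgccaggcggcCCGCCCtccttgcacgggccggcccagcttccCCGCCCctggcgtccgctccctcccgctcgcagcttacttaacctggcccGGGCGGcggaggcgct
TGFB2: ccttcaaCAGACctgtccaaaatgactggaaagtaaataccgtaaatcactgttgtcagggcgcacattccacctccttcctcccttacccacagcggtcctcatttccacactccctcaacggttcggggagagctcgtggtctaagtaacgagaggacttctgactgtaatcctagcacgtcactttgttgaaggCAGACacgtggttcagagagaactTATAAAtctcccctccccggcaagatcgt
TGFB1: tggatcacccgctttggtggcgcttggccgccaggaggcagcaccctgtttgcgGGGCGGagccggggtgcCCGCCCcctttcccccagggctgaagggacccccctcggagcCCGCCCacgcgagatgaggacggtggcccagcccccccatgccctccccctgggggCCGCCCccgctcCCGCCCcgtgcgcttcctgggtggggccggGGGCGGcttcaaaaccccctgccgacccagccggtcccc
The TGFBI window held 3 GC boxes and the TGFB1 window 6, while the TGFB2 window held 2 SMAD elements and 1 TATA box. A match is a run of letters and not a measured binding site.

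TGFBI had the highest ratio of the 9 genes and stood at rank 29 of 27213 in the GALNT3/T6-labelled clones. Its log2 ratios were 0.14 and 0.08 in the 2 GALNT3 KO clones and 4.94 and 5.81 in the 2 GALNT3/T6-labelled clones. The mean in the latter was 5.37 (SE 0.22), a 41.5-fold difference. In GALNT3 KO the mean was 0.11 (95% interval -0.46 to 0.68, limma adjusted p = 0.735).

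Both channels of the TGFBI spot were bright in the GALNT3/T6-labelled clones. The KO mean signals were 109 and 233 on the GALNT3 KO arrays against 121532 and 400879 on the others. The Ctrl mean signals were 127 and 323 on the GALNT3 KO arrays against 6693 and 6155. The Ctrl signal was thus 5.51% and 1.54% of the KO signal of the same spot. After normalisation between arrays (loess, then Aquantile) the TGFBI log2 signal of Ctrl was 7.23 and 7.95 on the GALNT3 KO arrays and 12.41 and 12.39 on those labelled GALNT3/T6 KO, and that of KO was 7.37 and 8.04 against 17.35 and 18.20. Between the 2 kinds of array the KO channel differed by 10.07 and the Ctrl channel by 4.81, which leaves the difference of 5.26 between the ratios.

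The Ctrl signal was also looked at for other genes with very high ratios of KO over Ctrl. Of 123 genes at least 16-fold higher in KO on both arrays labelled GALNT3/T6 KO, 118 had a higher Ctrl log2 signal there than with GALNT3 KO, the median rise being 1.71. TGFBI ranked 4 among the 123 in this rise. The same share and median were not computed over all genes, and the 123 were picked on the arrays that chose the set. Nothing particular to genes with high ratios is therefore read from these values. In the remaining 8 genes and their 12 probes the Ctrl channel moved by between -1.02 (the second TGFBR2 probe) and 0.79 (the second SMAD3 probe). Both KO values of TGFBI above came from the low-gain scan that the scanner software scales up, and no spot of the array was marked as saturated. What made the Ctrl signal of TGFBI rise was not tested.

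**Figure D1:**
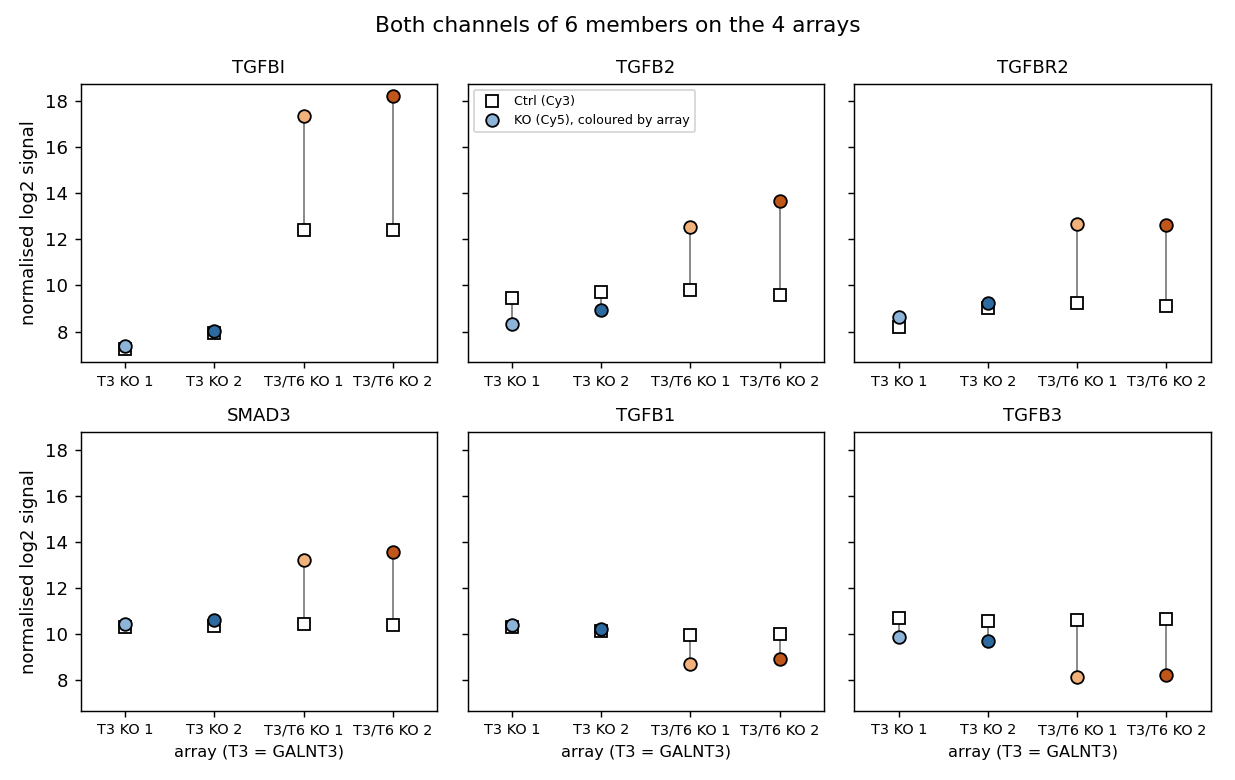
Normalised log2 signal of both channels (vertical axis) on the 4 arrays (horizontal axis, T3 standing for GALNT3) for 6 genes, with Ctrl (Cy3) as white squares and KO (Cy5) as coloured circles joined by a line. The Ctrl squares moved less between arrays for the other 5 genes, whereas for TGFBI they rose from 7.23 and 7.95 to 12.41 and 12.39 in the GALNT3/T6-labelled clones, where KO reached 17.35 and 18.20.

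The 3 ligands went different ways. TGFB2, the isoform best known from development and tumour invasion, was the only ligand that stood high in the GALNT3/T6-labelled clones: its ratios were 2.73 and 4.06 there (mean 3.40, SE 0.33, 10.6-fold) and -1.16 and -0.76 in GALNT3 KO. All 4 values had the sign of their group, and the 2 GALNT3/T6-labelled clones were 1.33 apart, the widest gap between same-labelled clones among the 9 genes. The second TGFB2 probe gave -0.46 and -0.39 in GALNT3 KO and 2.15 and 3.40 in the GALNT3/T6-labelled clones, the same order at a smaller size. The mean of -0.96 in GALNT3 KO had a 95% interval of -1.83 to -0.09 and did not pass the test over all genes (limma adjusted p = 0.119).

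TGFB3 stood low in all 4 clones. Its ratios were -0.82 and -0.87 in GALNT3 KO (mean -0.85, SE 0.08, limma adjusted p = 0.0173) and -2.48 and -2.43 in the GALNT3/T6-labelled clones (mean -2.45, SE 0.08, 5.48-fold lower). The KO mean signals of this probe were 636, 675, 206 and 352 against Ctrl signals of 1521, 2006, 2083 and 1906. The intron-crossing TGFB3 probe shown above was far dimmer, with Ctrl mean signals of 149 to 173, and gave -0.16 and -0.26 in GALNT3 KO. For the clone at -0.26 its KO mean signal of 101 was not clearly over background. The KO signal in the GALNT3/T6-labelled clones did not stand clearly over background, so this probe gives only a bound there, at least 1.34-fold lower. The GALNT3 KO call was lost with Agilent's own log ratios (-0.47, adjusted p = 0.0798) and with the replicate block (adjusted p = 0.0831). With the first or the second GALNT3 KO clone left out the TGFB3 value was -0.87 and -0.82. Those fits leave 1 clone in the group and cannot decide a call.

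TGFB1, the most widely expressed isoform, stood low only in the GALNT3/T6-labelled clones. Its ratios were 0.10 and 0.09 in GALNT3 KO (mean 0.10, 95% interval -0.12 to 0.31, adjusted p = 0.447) against -1.23 and -1.09 (mean -1.16, SE 0.08, 2.23-fold lower). The Ctrl signal differed by -0.25 between the 2 kinds of array and the KO signal by -1.51.

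Among the receptors TGFBR2, the ligand-binding type II receptor kinase, stood high in the GALNT3/T6-labelled clones at 3.42 and 3.54 (mean 3.48, SE 0.10, 11.2-fold). In GALNT3 KO it read 0.42 and 0.19 (mean 0.31, 95% interval 0.05 to 0.56, adjusted p = 0.102). The intron-crossing TGFBR2 probe shown above gave -0.16 and -0.19 in GALNT3 KO and 0.67 and 0.61 in the GALNT3/T6-labelled clones. Ctrl mean signals of this dim probe were 160, 501, 157 and 166. On the normalised log2 scale its Ctrl differed by -1.02 between the 2 kinds of array and its KO by -0.20. The KO of the brighter probe differed by 3.72. Both probes thus had ratios above 0 in the GALNT3/T6-labelled clones. The higher KO signal there was seen with the brighter probe only, and the ratio of the dim probe came with its lower Ctrl.

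TGFBR1, the type I receptor kinase, had nearly the same ratio on every array: -0.38 and -0.43 in GALNT3 KO (mean -0.40, SE 0.08, adjusted p = 0.0479) and -0.38 and -0.45 in the others (mean -0.42, SE 0.08). The difference between the 2 kinds of clone was -0.01 (95% interval -0.31 to 0.29). Its GALNT3 KO call was lost with Agilent's own log ratios (-0.17, adjusted p = 0.349) and with median centring (adjusted p = 0.0789). Either replicate block also ended the call (adjusted p = 0.130, and 0.0565 with crossed numbers). So did allowing for the position of the spot on the array, as given below. Without the first or the second GALNT3 KO clone the TGFBR1 value was -0.43 and -0.38, in fits that again cannot decide a call. TGFBR3, the betaglycan co-receptor that presents TGF-beta 2, overlapped between the groups: -0.01 and 0.69 in GALNT3 KO (adjusted p = 0.277) and 0.06 and 0.42 in the others. Its GALNT3 KO clones were 0.70 apart, which is wider than either mean.

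SMAD3, which carries the receptor signal to DNA, stood high in the GALNT3/T6-labelled clones. Its brighter probe gave 2.77 and 3.17 there (mean 2.97, SE 0.13, 7.84-fold) and 0.13 and 0.25 in GALNT3 KO (mean 0.19, 95% interval -0.14 to 0.52, adjusted p = 0.326). The second SMAD3 probe, printed 10 times per array, gave -0.02 and -0.19 in GALNT3 KO and 1.81 and 2.08 in the others. SMAD7, the inhibitory SMAD that TGF-beta induces as feedback, read -0.11 and -0.14 in GALNT3 KO (adjusted p = 0.540) and -0.34 and 0.14 in the others, where the 2 clones had opposite signs.

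**Figure D2:**
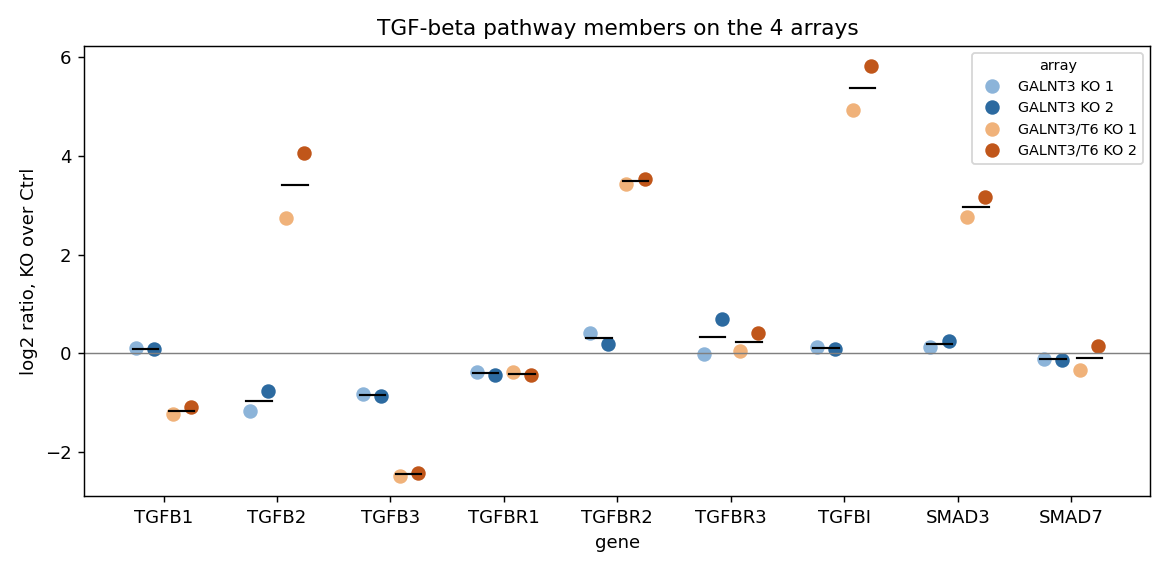
Log2 ratio of KO over Ctrl (vertical axis) for the 9 genes (horizontal axis) on each of the 4 arrays, with the mean of each group as a black line. TGFBI, TGFB2, TGFBR2 and SMAD3 lie at 2.73 or above in the GALNT3/T6-labelled clones, TGFB3 and TGFB1 lie lowest there, and TGFBR1, TGFBR3 and SMAD7 overlap between the groups.

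In GALNT3 KO against Ctrl 0 of the 9 genes were called higher and 2 lower (TGFB3 and TGFBR1) at an adjusted p of at most 0.05. Over all genes 11% were called, 4.69% higher and 6.35% lower. In the GALNT3/T6-labelled clones 4 of the 9 passed the same threshold higher and 3 lower, where 47.8% of all genes did (24.7% higher and 23.1% lower). In the difference between the 2 kinds of clone 4 stood higher and 2 lower, beside 23.7% of all genes (11.8% higher and 11.8% lower). The ratios of the 2 groups did not overlap for 6 of the 9 genes, 4 above and 2 below, and did not overlap for 61% of all genes. The last 3 counts include the values that chose the set, and nothing is read from them.

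The position of a spot on the array moved its ratio. On every array the ratio of KO over Ctrl fell along the 532 rows: the median log2 ratio of all spots was 0.20, 0.21, 0.24 and 0.28 in the first rows (up to 0.25 of the way) and -0.16, -0.21, -0.17 and -0.18 in the last (from 0.75 on). The loess correction used here acts on intensity and leaves this slope in place, and because it ran the same way on all 4 arrays the clones do not show it as spread. The repeated spots read it directly: the repeated spots of the TGFB1 probe (9 kept on 1 array and 10 on the others) had an SD of 0.25 to 0.32 on an array, and the SD was 0.05 to 0.13 after the trend along rows and columns had been subtracted. For the repeated SMAD3 probe the SD went from 0.24 and 0.25 to 0.11 and 0.08 on the GALNT3 KO arrays. On the GALNT3/T6-labelled arrays it went from 0.41 and 0.39 only to 0.27 and 0.24.

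**Figure D3:**
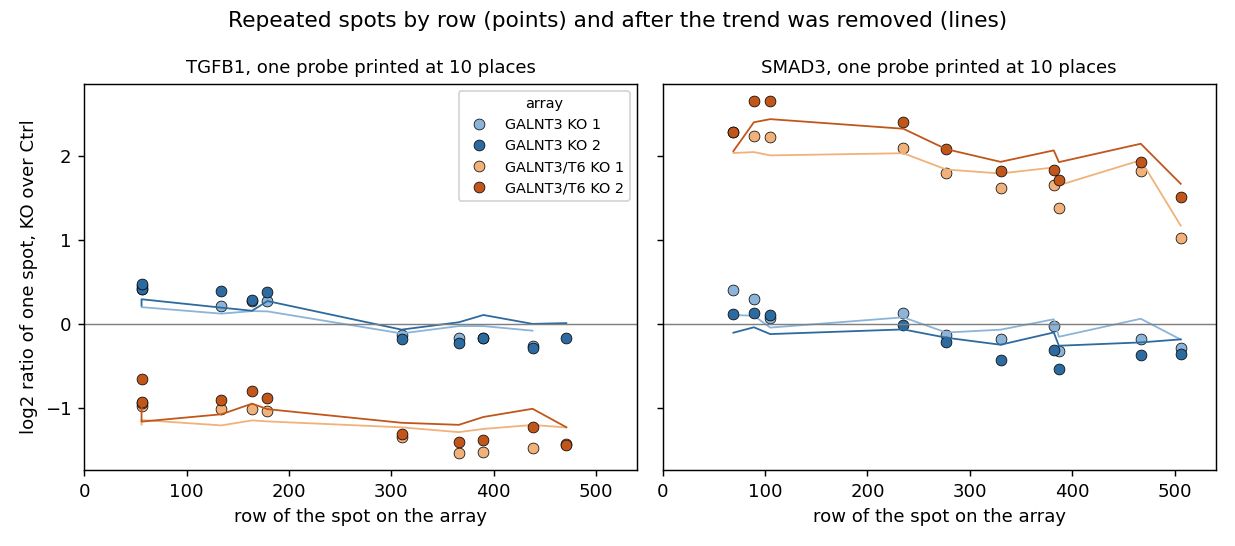
Log2 ratio of single spots (points, vertical axis) by row on the array (horizontal axis) for the TGFB1 probe and the repeated SMAD3 probe, coloured by array, with the same spots after the trend was subtracted as lines. Points in low rows lie above those in high rows on all 4 arrays, while the GALNT3/T6-labelled arrays stay apart from the GALNT3 KO arrays at every row.

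With the trend subtracted, a step added after the data had been seen, 2.8% of all genes were called in GALNT3 KO, 41.1% in the GALNT3/T6-labelled clones and 24% in the difference. TGFB3, whose main probe lies in row 439, moved to -0.61 (SE 0.07, adjusted p = 0.0353) in GALNT3 KO and to -2.22 on the other arrays. TGFBR1, in row 428, sat where the trend was between -0.22 and -0.27, and it moved to -0.16 in GALNT3 KO (SE 0.07, adjusted p = 0.255) and to -0.17 on the other arrays, which ended the call. TGFB3 was then the only one of the 9 genes called in GALNT3 KO. In the GALNT3/T6-labelled clones the values became 5.39 for TGFBI, 3.61 for TGFB2, 3.58 for TGFBR2, 2.80 for SMAD3 and -1.14 for TGFB1. SMAD7, in row 5 where the trend was between 0.18 and 0.33, moved to -0.35 in GALNT3 KO (adjusted p = 0.189) and to -0.41 on the other arrays, with both clones of each kind below 0.

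Beyond these members, 81 other pathway genes in 6 role lists were looked up, and 78 were tested. The lists were chosen with earlier results of these data known, so the adjusted p-values of their genes are no independent support. In GALNT3 KO 9 were called higher and 4 lower (11.5% and 5.13%, beside 4.69% and 6.35% of all genes; median -0.01, beside 0.02 over all genes). With the trend subtracted 3 and 2 were called, beside 255 and 507 of all 27213 genes. In the GALNT3/T6-labelled clones 23 were higher and 23 lower (29.5% each way beside 24.7% and 23.1% of all genes, median -0.03 beside 0.03), and in the difference 15 and 15 (19.2% each way beside 11.8% and 11.8%). Without the trend the counts were 26 and 22, and 15 and 15, beside 5455 and 5733, and 3269 and 3273, of all 27213 genes. By list, those in the GALNT3/T6-labelled clones were then 4 and 2 (latent complex), 6 and 1 (co-receptors) and 1 and 7 (SMAD proteins). They were 8 and 8 (target genes), 5 and 3 (activin and nodal arm) and 2 and 1 (FAS1 relatives and partners). The genes counted as higher in the GALNT3/T6-labelled clones and in the difference include FN1, FST and ITGA3. They passed the filter only through the arrays labelled GALNT3/T6 KO, where they were high.

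**Figure D4:**
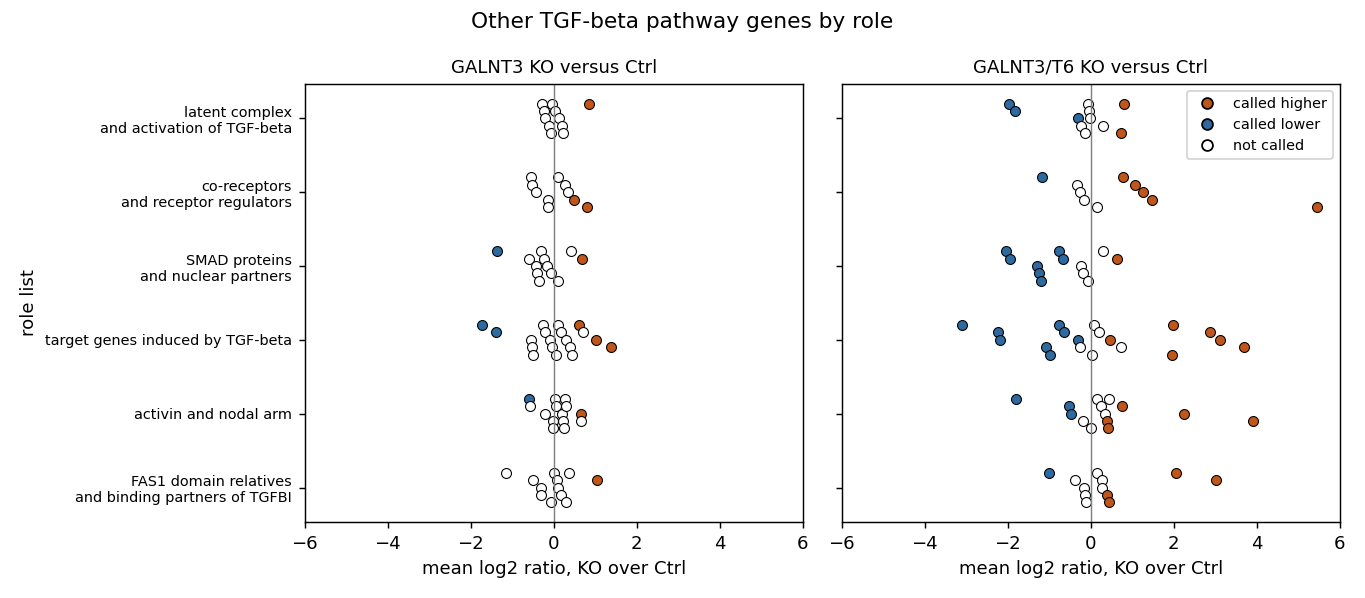
Mean log2 ratio of KO over Ctrl (horizontal axis) for the tested genes of the 6 role lists (rows), in GALNT3 KO (left) and in the GALNT3/T6-labelled clones (right), with genes called higher in orange, called lower in blue and not called in white. Each list holds genes on both sides of 0 in the right panel, from ANGPTL4 at -3.09 to BAMBI at 5.45.

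Of the latent complex and its activators 11 of 12 were tested, and in the GALNT3/T6-labelled clones 2 were called higher and 3 lower (18.2% and 27.3%, beside 24.7% and 23.1% of all genes; median -0.07). ITGAV, the integrin chain that frees latent TGF-beta, read 0.87 and 0.82 in GALNT3 KO (mean 0.84, SE 0.15, adjusted p = 0.0416) and -1.68 and -2.23 on the other arrays (mean -1.96, adjusted p = 9.3e-04). With the trend subtracted the former was 0.80 with adjusted p = 0.0763. LTBP4, a latent TGF-beta binding protein, fell by 1.81 (adjusted p = 5.9e-04) in the GALNT3/T6-labelled clones, whereas LTBP3 rose by 0.79 (adjusted p = 0.0128). THBS1, a matrix activator of latent TGF-beta, differed between the kinds of clone by 0.60 (adjusted p = 0.0301).

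Of the co-receptors and receptor regulators all 10 were tested, with 2 higher and 0 lower in GALNT3 KO (4.69% and 6.35% of all genes). Once the trend was subtracted 0 were called there in either direction, beside 255 and 507 of all 27213 genes. Those called in the GALNT3/T6-labelled clones were 5 higher and 1 lower (24.7% and 23.1% of all genes; median 0.46), and in the difference 3 higher and 0 lower (11.8% and 11.8% of all genes). BAMBI, a decoy receptor without a kinase domain, read 0.51 and 0.04 in GALNT3 KO and 5.82 and 5.08 on the other arrays (mean 5.45, SE 0.22, adjusted p = 1.8e-04). PMEPA1, which holds back receptor-activated SMADs, rose by 1.48 there (adjusted p = 0.00106). FKBP1A, which binds the type I receptor, was called in both kinds of clone, at 0.79 and 1.26 (adjusted p = 0.0391 and 0.00244), the first being 0.57 with adjusted p = 0.0857 once the trend was subtracted. TGFBRAP1, a receptor-associated protein, read 0.49 in GALNT3 KO (adjusted p = 0.0493), became 0.31 with adjusted p = 0.137 without the trend, and turned to -0.13 with the mean of all its probes. USP15, a deubiquitinase that acts on receptor complexes, differed between the kinds of clone by 0.68 (adjusted p = 0.0447).

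Of the SMAD proteins and nuclear partners all 12 were tested, and in the GALNT3/T6-labelled clones 1 was called higher and 7 lower (median -0.71), 58.3% lower beside 23.1% of all genes. With the trend subtracted the counts were 1 and 7, beside 5455 and 5733 of all 27213 genes, and the median -0.54. ZFYVE9, the anchor that brings SMAD2 and SMAD3 to the receptor, read -1.23 and -1.49 in GALNT3 KO (mean -1.36, SE 0.16, adjusted p = 0.0240) and -2.30 and -1.76 on the other arrays (adjusted p = 9.8e-04). SKIL, a repressor of SMAD transcription, fell by 1.93 (adjusted p = 3.4e-04) in the GALNT3/T6-labelled clones and read 0.22 and -0.01 in GALNT3 KO. SMAD6, an inhibitory SMAD, fell by 1.29 (adjusted p = 0.00347). LEMD3, an inner nuclear membrane protein that restrains SMADs, differed between the kinds of clone by -1.88 (adjusted p = 0.00280), and its 0.68 in GALNT3 KO (adjusted p = 0.0405) became 0.48 with adjusted p = 0.124 without the trend. SMAD2, the partner of SMAD3, differed by 0.99 (adjusted p = 0.00998).

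Of the target genes induced by TGF-beta 19 of 20 were tested. In the GALNT3/T6-labelled clones 6 were called higher and 8 lower (31.6% and 42.1%, beside 24.7% and 23.1% of all genes; median 0.04), and in the difference 6 and 6 (31.6% each way beside 11.8% and 11.8%). FN1, the matrix protein fibronectin, read 3.21 and 4.17 in the GALNT3/T6-labelled clones (mean 3.69, SE 0.24). On the GALNT3 KO arrays neither of its channels was well above background. FN1 thus passed the filter only through the arrays where it was high, and its values are a description, also within the counts of this list. The Ctrl mean signals of FN1 were 84.7 and 105 on the GALNT3 KO arrays and 310 and 887 on the others, a rise in the Ctrl channel as for TGFBI. CCN2, connective tissue growth factor, was called higher in both kinds of clone: 1.26 and 1.48 in GALNT3 KO (mean 1.37, SE 0.10, adjusted p = 0.0117) and 3.19 and 3.03 in the others (mean 3.11, adjusted p = 1.2e-04). ANGPTL4, a secreted inhibitor of lipoprotein lipase, was lower in both, at -1.39 (adjusted p = 0.0236) and -3.09 (adjusted p = 3.3e-04). TPM1, a tropomyosin of stress fibres, read -1.51 and -1.93 in GALNT3 KO (adjusted p = 0.0287, and 0.0569 without the trend) and 0.30 and 1.15 in the others. CDKN2B, the cyclin-dependent kinase inhibitor p15, differed between the kinds of clone by 2.44 (adjusted p = 0.00315).

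Of the activin and nodal arm, which shares SMAD2 and SMAD3 with TGF-beta, 14 of 15 were tested, with 5 higher and 3 lower in the GALNT3/T6-labelled clones (35.7% and 21.4%, beside 24.7% and 23.1% of all genes; median 0.29). FST, which traps activin, read 0.18 and 0.29 in GALNT3 KO and 3.66 and 4.15 in the others (mean 3.90, SE 0.14). In GALNT3 KO neither FST channel was well above background for 1 of the 2 clones. FST thus passed the filter only through the arrays where it was high, and its values are a description, also within the counts of this list. FSTL3, a second activin trap, rose by 2.25 (adjusted p = 3.4e-04). GDF11, a ligand of the arm, was lower in both kinds of clone at -0.59 and -1.80 (adjusted p = 0.0335 and 3.0e-04), the first being -0.36 with adjusted p = 0.122 without the trend. INHBB, an activin subunit, read 0.65 in GALNT3 KO (adjusted p = 0.0411) and 0.47 with adjusted p = 0.117 without the trend.

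Of the FAS1 domain relatives and binding partners of TGFBI all 12 were tested, with 4 higher and 1 lower in the GALNT3/T6-labelled clones (33.3% and 8.33%, beside 24.7% and 23.1% of all genes; median 0.22). With the trend subtracted they were 2 and 1, beside 5455 and 5733 of all 27213 genes. POSTN, periostin, the nearest relative of TGFBI, read -0.10 and -0.49 in GALNT3 KO and 1.28 and 2.81 in the others (mean 2.05, SE 0.37, adjusted p = 0.0117). ITGA3, an integrin chain that TGFBI can bind, read 0.03 and -0.19 against 2.89 and 3.15 (mean 3.02, SE 0.11), with each channel well above background on only 1 GALNT3 KO array. ITGA3 thus passed the filter only through the arrays where it was high, and its values are a description, also within the counts of this list. BGN, the matrix proteoglycan biglycan, went opposite ways, at 1.03 in GALNT3 KO (adjusted p = 0.0379, and 0.0788 without the trend) and -0.80 and -1.21 in the 2 other clones (adjusted p = 0.00997).

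The 5 genes whose 4 ratios lay nearest to those of TGFBI, by Euclidean distance over the 4 arrays among 27174 genes, were KRT18P55, CD44, ENST00000557241, NABP1 and MAL2, at distances of 0.20 to 0.47. CD44, a receptor for hyaluronan, read 0.07, 0.02, 5.24 and 5.67. MAL2, a protein of apical transport, read 0.02, 0.33, 4.91 and 5.42. KRT18P55 is a pseudogene whose probe may share sequence with keratin 18, so its signal is uncertain.

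Facts of the whole series bear on these values. GALNT3 went against its label in the GALNT3/T6-labelled clones, at 4.80 and 5.08 (mean 4.94). Its KO mean signals there were 4043 and 8494 against Ctrl signals of 264 and 252. In GALNT3 KO neither GALNT3 channel rose clearly over background, so the gene passed the filter only through the arrays where it was high. The cause of this reading was not tested, and neither was the knockout itself. GALNT6 read -0.47 and -0.38 in GALNT3 KO (adjusted p = 0.0447) and -0.66 and -0.69 in the others (adjusted p = 0.00335). Without the trend its means were -0.23 (adjusted p = 0.145) and -0.47 (adjusted p = 0.00850). Of the 8 epithelial and ovarian markers 6 were called higher in the GALNT3/T6-labelled clones (75% beside 24.7% of all genes, median 1.11 beside 0.03). The keratins stood far above the rest, with KRT18 at 5.68, KRT19 at 4.81 and KRT8 at 2.83, while the other 5 lay between 0.54 and 1.21 and EPCAM and EMX2 were not called (adjusted p = 0.175 and 0.0537). The summed normalised KO signal of the 8, most of it from the 3 keratins on the GALNT3/T6-labelled arrays, was 9742 to 11269 on the GALNT3 KO arrays and 881901 to 945082 on the others, and the summed Ctrl signal was 8057 to 8871 against 33353 to 46045. Of the 6 fibroblast markers 3 were higher and 2 lower in the GALNT3/T6-labelled clones (50% and 33.3% beside 24.7% and 23.1% of all genes). Their means there ran from -1.19 to 3.44. Their summed KO signals, most of each from THY1, were 12927 to 15430 on the GALNT3 KO arrays against 37070 to 51943. The summed Ctrl signals were 14365 to 16464 against 17625 to 18144. Of the 3 leukocyte markers 1, CD68, was called higher in the GALNT3/T6-labelled clones, beside 24.7% of all genes. Its KO mean signals there were 1246 and 3493 against Ctrl signals of 814 and 911, while CD14 and PTPRC read 0.05 to 0.12. Of the 3 endothelial markers 2 were tested and 1, VWF, was called higher there at 1.32, beside 24.7% of all genes. The other, CDH5, read -0.16 and -0.13 there. The part of all these markers in the values of the TGF-beta genes was not tested, and all 4 arrays lay on 1 slide.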

How the data were processed

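Gene expression was read on 2-colour Agilent arrays, with KO RNA in Cy5 and Ctrl RNA in Cy3, in 2 groups of 2 clones. The authors deposited scanner output whose mean and background intensity per spot was taken here, together with Agilent's own log10 ratio and a table of the same log10 ratios per probe. The labels name Agilent Feature Extraction 8.5.1.1, whereas the settings block of the files reads 10.7.3.1. Intensities were corrected with normexp (offset 50) and loess in limma 3.58.1 (R 4.3.3), control spots and outlier flags were left out, and spots of a probe were averaged. The brightest probe that passed the filter stood for a gene. Group means were fitted over all 4 arrays with lmFit and eBayes, p-values were adjusted over all 27213 genes by the Benjamini-Hochberg method, and genes were called at an adjusted p of at most 0.05. Channels were compared after loess and Aquantile. Each array held 43376 spots other than controls, with 84 to 162 flagged as outliers and 86.9% to 93.8% well above background. The number of arrays limits the precision.

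Named genes were the 9 members, GALNT3 and GALNT6, the 3 called genes with the largest change in each role list and comparison (same direction on both arrays) and the 5 nearest to TGFBI. The members and lists were chosen with earlier results of these data known. Alternatives changed the background correction, scaling, probe rule, filter, arrays and replicate block, and a trend along rows and columns (lowess, span 0.3) was subtracted as a step chosen after seeing the data. Labels do not pair the clones, and deviations of same-numbered clones correlated at -0.239 over 27175 genes.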

Additional observations from a re-analysis of the deposited data

Results flagged for a closer look

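The log2 ratios of TGFB1 and TGFB2 had opposite signs in the 2 kinds of clone, on both arrays of each. TGFB1 read 0.10 and 0.09 in the GALNT3 KO clones and -1.23 and -1.09 in those labelled GALNT3/T6 KO, a difference of -1.25. TGFB2 read -1.16 and -0.76 against 2.73 and 4.06, a difference of 4.36. Since the genes were chosen with the latter arrays in view, these differences are given as a description and no test of them is used. The GALNT3 KO means of both genes missed the threshold (limma adjusted p = 0.447 and 0.119). That of TGFB1 lay near 0 and was -0.016 with median centring, so no move of TGFB1 is shown there. TGFB2 lay below 0 in both GALNT3 KO clones with both of its probes, and its mean there was -1.16 to -0.69 over 16 alternatives. It was not called in the main fit.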

How the results depend on the processing

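TGFBI in the GALNT3/T6-labelled clones, where its values chose the set, read 4.94 to 5.81 over 16 alternatives, which is a description. Of the 9 genes, 2 were called in GALNT3 KO: 0 with Agilent's log ratio, the value table or the replicate block, 1 with median centring, crossed numbers or the trend removed, 4 when only the arrays of the group were fitted, and 0 to 4 with a clone left out. Other pathway genes called higher there (9) came to 3, 4, 2, 4 and 18 with Agilent's log ratio, median centring, the value table, the mean of all probes and only the group's arrays, 0 with the replicate block, 3 with the trend removed and 0 to 18 with a clone left out. Those called lower (4) came to 2 with Agilent's log ratio, the value table or the trend removed, 19 with only the group's arrays, 0 with the replicate block, 9 with crossed numbers and 0 to 19 with a clone left out. In the GALNT3/T6-labelled clones the 23 called higher became 15 with only the group's arrays and 15 to 27 with a clone left out. In the difference the 15 higher and 15 lower became 4 to 25 and 1 to 24 with a clone left out. Without either GALNT3 KO clone limma called 0 genes in GALNT3 KO (4688 and 3244 at an unadjusted p of at most 0.05); a clone left alone is assumed to vary like those of the other group. Over all genes the replicate block called 82, 10110 and 4748 genes in the 3 comparisons, and crossed numbers 3681, 13552 and 7315. In GALNT3 KO 1276 genes were higher and 1727 lower, against 197 and 394 with Agilent's log ratio, 197 and 388 with the value table, 546 and 1784 with median centring and 255 and 507 with the trend removed. Some values near 0 turned: in GALNT3 KO TGFB1 was -0.016 with median centring, TGFBR3 was -0.012 to 0.69 with a clone left out and TGFBRAP1 was -0.13 with the mean of all probes. In the GALNT3/T6-labelled clones SMAD7 was -0.34 to 0.14 with a clone left out. In the difference TGFBR1 was 0.031 with offset 0, 0.057 with Agilent's log ratio, 0.057 with the value table and -0.045 to 0.023 with a clone left out, TGFBR3 was -0.45 to 0.25 with a clone left out, and SMAD7 was -0.19 with Agilent's log ratio, -0.19 with the value table, -0.055 with the trend removed and -0.22 to 0.27 with a clone left out. The cause of these changes was not tested.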
